A study of Mus musculus with 8 samples.

Results

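The genes described here are 10 genes of the antioxidant and iron-storage response, taken by symbol from the 53715 rows of a table of RPKM values, which are reads scaled to exon length and library size. They are Nfe2l2, Hmox1, Nqo1, Gclm, Txnrd1, Srxn1, Prdx1, Sod2, Fth1 and Ftl1. Each was found once, and 9 of the 10 reached 1 RPKM in at least 2 of the 8 libraries and were tested. Nqo1 did not and is described by its values alone.

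The libraries were made from polyadenylated RNA of mouse macrophages that lack STING (Sting-/-), the endoplasmic reticulum adaptor that turns cyclic dinucleotide sensing into interferon and NF-κB signalling. The cells were stable lines that carried 1 of 3 STING transgenes or none. The zfCTT lines carried mSTING-zfCTT, a name read here as mouse STING with the zebrafish C-terminal tail. The dCTT lines carried mSTING-dCTT, read as mouse STING without that tail, and the mSTING lines carried mouse STING. The no-transgene lines, titled MSCV2.2, had the transgene label "none". All 8 libraries, 2 per group, came from cells given CMA (10-carboxymethyl-9-acridanone, a ligand of mouse STING) at 500 µg/ml for 4 h. No unstimulated library was analysed here, so every difference below is between stimulated cells. The labels do not say whether the 2 libraries of a group are separate cultures or whether a line is a clone. The p-values therefore rest on how far apart these libraries lie, which could be technical.

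NRF2, the product of Nfe2l2, is a transcription factor that KEAP1 holds in the cytoplasm and passes to the proteasome. Oxidants and electrophiles modify KEAP1, and NRF2 then enters the nucleus, pairs with a small MAF protein and binds antioxidant response elements in front of genes for glutathione synthesis, thioredoxin recycling, haem breakdown and quinone reduction. Ferritin, a shell of heavy (Fth1) and light (Ftl1) chains, stores the iron that haem breakdown releases. Its amount is set largely in translation, by iron regulatory proteins that bind a hairpin in the 5′ leader of both messages, so that ferritin RNA is not a measure of ferritin protein. Macrophages recycle iron from red cells and carry large ferritin pools.

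The sequences below place these elements in the genes described. The first set is the antioxidant response element core, TGACNNNGC on either strand, in the RefSeq promoter windows of the GRCm38.p6 assembly, from 250 bases before to 50 bases after each start. Of 9 of the 10 genes with windows, 5 held the core, against 14.0% of all 27025 symbols. Of the 12 windows of these genes 5 held it, against 12.4% of all 32851 windows. Each is printed 5′ to 3′ on the motif's own strand with 10 bases on each side and the core in capitals.
Nfe2l2, chr2:75704885-75704913, minus strand: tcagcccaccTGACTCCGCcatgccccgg
Srxn1, chr2:152105542-152105570, minus strand: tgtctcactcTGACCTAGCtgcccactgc
Gclm, chr3:122245413-122245441, minus strand: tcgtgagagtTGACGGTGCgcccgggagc
Prdx1, chr4:116685456-116685484, minus strand: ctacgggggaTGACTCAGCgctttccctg
Txnrd1, chr10:82859104-82859132, minus strand: cgtgtcagaaTGACAAAGCaaaaatccag

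The Nfe2l2 core lay 240 bases before the annotated start and the Srxn1 core 28 bases after it. The Txnrd1 core lay in the window chr10:82858956-82859255, of a start inside the gene, and not in that of the first start. The Prdx1 core, read on the other strand, holds a match to the AP-1 motif TGAGTCA. That motif was found in the windows of 2 of the 9 genes, Srxn1 and Prdx1, against 5.95% of all symbols. It was in 2 of the 12 windows, against 5.2% of all windows. A match to these letters is a description of the window and shows no binding.

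The second set is the iron-responsive hairpin of the 2 ferritin messages, 30 bases each in the GENCODE transcripts on GRCm38. The capitals mark the loop, CAGTGN, and 5 base pairs close the stem on either side of it in both.
Fth1, chr19:9982731-9982760, plus strand: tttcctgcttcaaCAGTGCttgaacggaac
Ftl1, chr7:45459779-45459808, minus strand: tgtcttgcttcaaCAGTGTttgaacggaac

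The depth recovered from the steps of the RPKM values in megareads was 20.1 and 34.8 in zfCTT, 55.7 and 171.4 in dCTT, 88.1 and 88.2 in mSTING, and 27.7 and 101.2 in no-transgene libraries. Tmem173, the gene of STING, read 14.2 and 20.6 RPKM in zfCTT, 22.7 and 15.0 in dCTT, 10.6 and 22.1 in mSTING, and 3.23 and 2.42 RPKM in no-transgene libraries. Of 10 macrophage markers 8 reached 1 RPKM, with a summed level of 628 and 808 RPKM in zfCTT, 893 and 839 in dCTT, 540 and 768 in mSTING, and 1146 and 966 in no-transgene libraries. None of 8 fibroblast, 8 neutrophil, 6 dendritic cell, 8 erythroid or 5 epithelial markers reached 1 RPKM in 2 libraries, while 1 of 7 T cell markers (Lck) and 1 of 6 B cell markers (Ighm) did. In a principal component analysis, zfCTT replicate 1 stood apart on the first component (38.2% of the variance), and no-transgene replicate 1 and dCTT replicate 1 on the second (37.0%). On the third (11.6%) mSTING replicate 1 stood apart, which also lay far from 0 on the second.

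None of the 9 tested genes passed the test in any of 7 comparisons. The test was limma on log2(RPKM + 1), with all 8 libraries in 1 fit and a Benjamini-Hochberg adjusted p under 0.05 over all 13475 genes tested. In the zfCTT against no-transgene comparison 146 genes passed (1.08%), in zfCTT against dCTT 146 (1.08%), in zfCTT against mSTING 16 (0.119%), and in the 4 libraries with a tailed STING against the 4 without 123 (0.913%). No gene passed in mSTING against no transgene (0%), dCTT against no transgene (0%) or dCTT against mSTING (0%). At an unadjusted p under 0.05, limma picked 1 of the 9 genes in zfCTT against no transgene (13.4% of all genes), 1 in zfCTT against mSTING (11%), 2 in zfCTT against dCTT (12.7%) and 1 in tail against no tail (10.7%). At the same threshold it picked 0 of the 9 in mSTING against no transgene (467 genes, 3.47%), dCTT against no transgene (36 genes, 0.267%) and dCTT against mSTING (336 genes, 2.49%). limma-voom on the recovered reads also passed 0 of the 9 in every comparison. With so few genes passing anywhere, 0 of 9 is close to the background share, and the intervals below give the sizes that these libraries leave possible.

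The libraries of 2 groups often did not overlap, for these genes as for all. Between zfCTT and no-transgene libraries 3 of 9 genes did not overlap, against 39.6% of all tested genes. The counts were 4 of 9 for zfCTT against dCTT (44.8%), 2 of 9 for zfCTT against mSTING (49.4%), 1 of 9 for dCTT against mSTING (29%), 1 of 9 for dCTT against no transgene (14.4%), 0 of 9 for mSTING against no transgene (32.3%) and 0 of 9 for tail against no tail (8.29%). The median log2 fold change of the 9 genes was -0.07 in zfCTT against no transgene, where that of all tested genes was -0.04, and it ran from -0.07 to 0.07 as single libraries were left out. It was 0.20 against -0.02 for all genes in zfCTT over dCTT (0.05 to 0.26 with a library left out) and 0.13 against 0.01 in zfCTT over mSTING (0.08 to 0.55, the upper end without mSTING replicate 2). In mSTING over no transgene it was -0.24 against -0.04 (-0.36 to -0.02, the end nearest 0 without mSTING replicate 1). In dCTT over no transgene all 9 values were negative, between -0.66 and -0.03, while 6328 of the 13475 tested genes had positive values. The median there was -0.18 against -0.01 for all genes. It moved to -0.02 without no-transgene replicate 2. Without no-transgene replicate 1 Gclm (0.06) and Prdx1 (0.71) were positive. So was Nfe2l2, whose dCTT libraries (10.6 and 9.96 RPKM) both exceeded no-transgene replicate 2 (9.50 RPKM). Signs of the other genes with a library left out are not given here, so the shared sign may rest on single libraries. The comparisons that name 1 group share its 2 libraries, so their values are not independent.

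**Figure D1:**
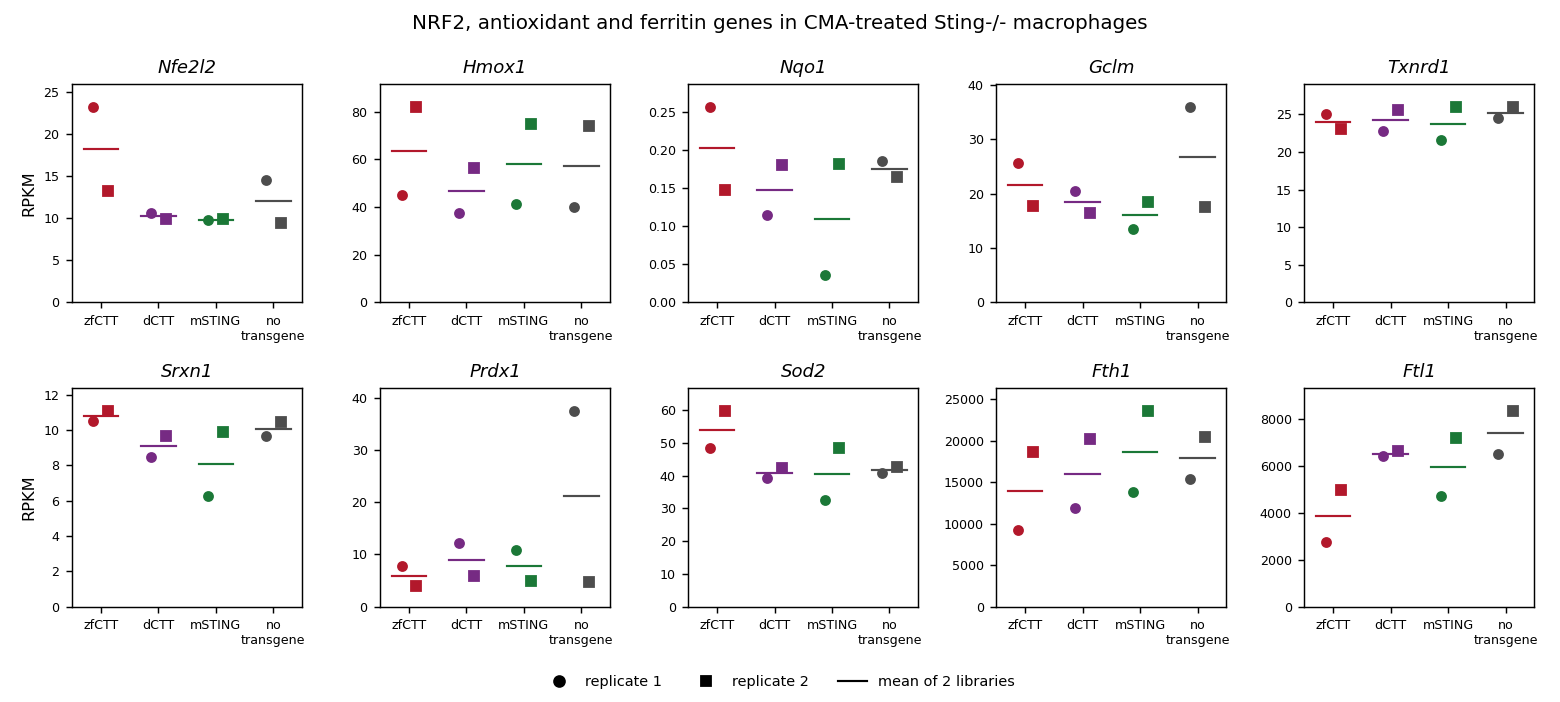
RPKM of the 10 genes, 1 panel per gene on a linear axis from 0, in each of the 8 libraries (circle for replicate 1, square for replicate 2, line for the mean of the 2), with the groups zfCTT, dCTT, mSTING and no transgene from left to right. The levels span from under 1 RPKM for Nqo1 to over 9000 RPKM for Fth1, and the 2 libraries of a group often lie as far apart as the groups do.

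Across the set the order of mean levels per length was Fth1, Ftl1, Hmox1, Sod2, Txnrd1, Gclm, Nfe2l2, Prdx1, Srxn1 and Nqo1. Fth1 averaged 16658 and Ftl1 5942 RPKM over the 8 libraries, and their ranges (9285 to 23573 and 2741 to 8338 RPKM) did not overlap. The Ftl1 row leaves out 7 near-identical genes, treated below. Summed with them it ran from 11079 RPKM in zfCTT replicate 1 to 32854 RPKM in no-transgene replicate 2. That overlaps the range of Fth1, and the sum may count the same reads more than once. Hmox1 (mean 56.5 RPKM) and Sod2 (44.3 RPKM) overlapped in range, while Sod2 and Txnrd1 (24.3 RPKM) did not. Overlap joined Txnrd1 to Gclm (20.7), Gclm to Nfe2l2 (12.6), and Nfe2l2 to Prdx1 (11) and Srxn1 (9.50). Nqo1, at a mean of 0.159 RPKM, was below all others in every library.

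Nfe2l2 (chr2:75675513-75704641, minus strand, GRCm38) encodes NRF2 itself. It read 23.2 and 13.3 RPKM in zfCTT, 10.6 and 9.96 in dCTT, 9.78 and 9.88 in mSTING, and 14.6 and 9.50 RPKM in no-transgene libraries. Both zfCTT libraries lay above all 4 dCTT and mSTING libraries, while the lower zfCTT library lay below the higher no-transgene one. The log2 fold change was 0.78 ± 0.30 (SE) in zfCTT over mSTING, with a 95% interval of 0.06 to 1.5, an unadjusted p of 0.0371 and an adjusted p of 0.443 by limma. It was 0.72 ± 0.30 in zfCTT over dCTT (adjusted p = 0.390, limma) and 0.54 ± 0.30 in zfCTT over no transgene (interval -0.18 to 1.25, adjusted p = 0.505, limma). Without zfCTT replicate 1 the zfCTT value was 0.40 over mSTING, 0.34 over dCTT and 0.15 over no transgene, and without no-transgene replicate 2 the last was 0.25. In mSTING over no transgene it was -0.24 ± 0.30 and turned to 0.05 without no-transgene replicate 1.

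The partners of NRF2 were looked at as a list of 18 regulators, of which 15 were tested. None passed in any of the 7 comparisons (zfCTT over no transgene, 3 of 15 with an unadjusted p under 0.05 beside 13.4% of all genes, median 0.09 beside -0.04). Keap1, the sensor that targets NRF2 for degradation, had 29.9 and 30.6 RPKM in zfCTT, against 18.1 and 24.3 RPKM in no-transgene libraries (log2 fold change 0.51 ± 0.20, adjusted p = 0.355, limma), and the value was 0.31 without no-transgene replicate 1. Mafk, a small MAF that pairs with NRF2 and with its competitor BACH1, had 18.9 and 23.4 RPKM in zfCTT, 9.29 and 11.4 in dCTT, 19.3 and 13 in mSTING, and 8.17 and 11.2 RPKM in no-transgene libraries. All 4 libraries with a tailed STING exceeded all 4 without for Mafk, and zfCTT over no transgene gave 1.06 ± 0.26 with an adjusted p of 0.136 by limma. Maff, another small MAF, gave 0.51 ± 0.15 (adjusted p = 0.198, limma).

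Hmox1 (chr8:75093621-75100589, plus strand) encodes haem oxygenase 1, which splits haem into biliverdin, carbon monoxide and iron. It read 45.1 and 82.0 RPKM in zfCTT, 37.3 and 56.6 in dCTT, 41.3 and 75.0 in mSTING, and 40.2 and 74.2 RPKM in no-transgene libraries. The groups overlapped in every pair, and replicate 2 exceeded replicate 1 in all 4 groups, by 1.52-fold to 1.85-fold. Over no transgene the log2 fold change was 0.15 ± 0.46 in zfCTT (interval -0.95 to 1.26) and 0.03 ± 0.46 in mSTING (-1.08 to 1.13), so both intervals reach past 1 on the log2 scale. With single libraries left out the 2 values ran from -0.28 to 0.59 and from -0.41 to 0.46. The first was negative without zfCTT replicate 2 or no-transgene replicate 1, and the second without mSTING replicate 2 or no-transgene replicate 1.

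Nqo1 (chr8:107388225-107403206, minus strand) encodes the quinone reductase that is often used as a readout of NRF2. It read 0.26 and 0.15 RPKM in zfCTT, 0.12 and 0.18 in dCTT, 0.04 and 0.18 in mSTING, and 0.19 and 0.17 RPKM in no-transgene libraries. These values rest on 5 to 48 reads a library, and no group stood apart.

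Gclm (chr3:122245557-122270732, plus strand) encodes the modifier subunit of glutamate-cysteine ligase, the first step of glutathione synthesis. It read 25.7 and 17.7 RPKM in zfCTT, 20.5 and 16.5 in dCTT, 13.5 and 18.6 in mSTING, and 36.0 and 17.6 RPKM in no-transgene libraries. One no-transgene library was the highest of all and the other lay among the rest. The log2 fold change over no transgene was -0.23 ± 0.37 in zfCTT, -0.43 ± 0.37 in dCTT and -0.64 ± 0.37 in mSTING (interval -1.52 to 0.24). Without zfCTT replicate 2 the first became 0.03. Without no-transgene replicate 1 the first became 0.27, the second 0.06 and the third -0.14.

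The Gclm count is uncertain for another measured reason. Exons of Gclm share 244 bases with Gm6061, a processed pseudogene on the same strand, and 296 bases with Gm17494 on the opposite strand. Gm6061 read 540 and 258 RPKM in zfCTT, 540 and 143 in dCTT, 84.5 and 171 in mSTING, and 809 and 154 RPKM in no-transgene libraries. Its highest library was also the highest of Gclm, and its lowest also the lowest. The recovered reads of Gm6061 came to between 49.1% and 206% of those counted for Gclm, and whether reads of 1 gene were counted for the other was not tested.

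Gclc, the catalytic subunit of the same ligase, was lower in both zfCTT libraries (9.47 and 10.1 RPKM) than in the no-transgene libraries (14.3 and 14.3 RPKM), with a log2 fold change of -0.51 ± 0.15 and an adjusted p of 0.227 by limma. It belongs to a list of 40 glutathione and xenobiotic targets of NRF2, of which 28 were tested and none passed in any comparison. In zfCTT over no transgene 3 of the 28 had an unadjusted p under 0.05, beside 13.4% of all tested genes, and the median was -0.24, beside -0.04. In that comparison 11 had both zfCTT libraries below both no-transgene libraries (20.8% of all tested genes), while 6 had both above (18.8%). Gss, the second enzyme of glutathione synthesis, gave 0.51 ± 0.18 (adjusted p = 0.308, limma) and 0.33 without zfCTT replicate 1. Blvrb, a biliverdin reductase downstream of haem oxygenase, read 8.44 and 21.9 RPKM in zfCTT, against 23.8 and 39.1 RPKM in no-transgene libraries (-1.10 ± 0.48, adjusted p = 0.392, limma). Its value was -0.46 without zfCTT replicate 1 and -1.74 without zfCTT replicate 2. Gstt1, a glutathione transferase, read 18.9 and 1.13 RPKM in zfCTT, 0.11 and 0.03 in dCTT, 0.33 and 0.03 in mSTING, and 0.05 and 0.03 RPKM in no-transgene libraries. It was high in 1 zfCTT library and reached 1 RPKM in no library outside that group. It thus passed the filter on low values only through the group where it is high, and no test of it is printed. Gstt1 is nevertheless 1 of the 3 and 1 of the 6 counted above and enters the median, and its part there is no support for a rise.

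Txnrd1 (chr10:82833951-82897712, plus strand) encodes cytosolic thioredoxin reductase, which keeps thioredoxin reduced at the expense of NADPH. It read 25.0 and 23.0 RPKM in zfCTT, 22.8 and 25.6 in dCTT, 21.6 and 26 in mSTING, and 24.5 and 25.9 RPKM in no-transgene libraries. The highest library exceeded the lowest by 1.2-fold, the smallest range of the 10 genes. The interval of zfCTT over no transgene was -0.48 to 0.34 on the log2 scale, around -0.07 ± 0.17 (-0.12 to -0.01 with single libraries left out).

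Srxn1 (chr2:152105516-152111376, plus strand) encodes sulfiredoxin, which repairs over-oxidised peroxiredoxins. It read 10.5 and 11.1 RPKM in zfCTT, 8.48 and 9.68 in dCTT, 6.28 and 9.87 in mSTING, and 9.68 and 10.4 RPKM in no-transgene libraries. Both zfCTT libraries were above all others, by a margin that was small beside the spread within mSTING. In zfCTT over no transgene it was higher by a log2 fold change of 0.09 ± 0.22 (interval -0.43 to 0.61, adjusted p = 0.901, limma), and by 0.04 to 0.14 with single libraries left out.

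Prdx1 (chr4:116685544-116700822, plus strand) encodes the abundant cytosolic peroxiredoxin that reduces hydrogen peroxide. It read 7.85 and 3.89 RPKM in zfCTT, 12.2 and 5.84 in dCTT, 10.9 and 4.89 in mSTING, and 37.4 and 4.81 RPKM in no-transgene libraries. Replicate 1 exceeded replicate 2 in all 4 groups, and no-transgene replicate 1 stood far above the other 7 libraries. In zfCTT over no transgene the log2 fold change was -1.18 ± 0.88 (interval -3.30 to 0.93, adjusted p = 0.612, limma), and 0.18 without that library. The values over no transgene of dCTT (-0.66 ± 0.88) and mSTING (-0.84 ± 0.88) likewise became 0.71 and 0.53. The 2 pseudogenes at least 95% identical to Prdx1 over 300 or more bases, Gm7204 and Gm21399, read 17.0 and 11.9 RPKM in the same library and at most 2.78 RPKM in the others, so reads of these copies may be shared with Prdx1.

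Sod2 (chr17:13006846-13040063, plus strand) encodes the manganese superoxide dismutase of mitochondria, a gene that NF-κB also activates. It read 48.4 and 59.7 RPKM in zfCTT, 39.3 and 42.3 in dCTT, 32.7 and 48.5 in mSTING, and 40.8 and 42.6 RPKM in no-transgene libraries. Both zfCTT libraries were above the dCTT and no-transgene libraries, and 1 of them fell just below the higher mSTING library. In zfCTT the log2 fold change was 0.36 ± 0.23 over no transgene (interval -0.19 to 0.91, adjusted p = 0.564), 0.39 ± 0.23 over dCTT (adjusted p = 0.547) and 0.42 ± 0.23 over mSTING (adjusted p = 0.5), all by limma. Without zfCTT replicate 2 these were 0.21, 0.24 and 0.27, and without mSTING replicate 1 the last was 0.14. Nfkbia, the NF-κB target and inhibitor IκBα, read 209 and 176 RPKM in the same zfCTT libraries, against 46.7 and 53.5 RPKM in no-transgene libraries. It read 58.9 and 64.9 RPKM in dCTT. In mSTING it read 110 and 91.6 RPKM, where Sod2 over no transgene was -0.06 ± 0.23 on the log2 scale. Any link between the 2 genes was not tested.

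**Figure D2:**
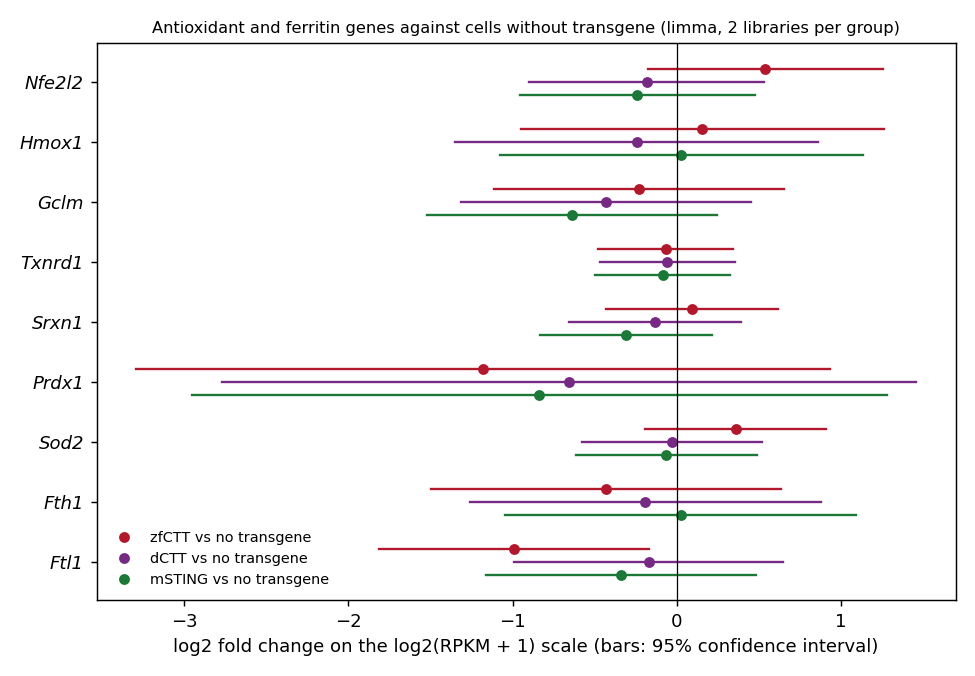
Log2 fold change over the no-transgene libraries of the 9 tested genes, on the log2(RPKM + 1) scale, for zfCTT, dCTT and mSTING, with bars for the 95% interval of the limma fit. Ftl1 in zfCTT (-0.99) is the value whose interval stays clear of 0, and its adjusted p was 0.289.

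Beside these enzymes, a list of 23 genes for thioredoxins, peroxiredoxins, superoxide dismutases, catalase and their partners had 21 tested. None passed in the other 6 comparisons. In zfCTT over no transgene 1 fell and 0 rose, where 0.156% of all tested genes fell and 0.928% rose, and the median was -0.17 beside -0.04. Of the 21, 3 had an unadjusted p under 0.05, beside 13.4% of all genes. The gene that fell was Sesn1, a p53-inducible sestrin linked to peroxiredoxin repair and to restraint of mTORC1. It read 3.07 and 3.88 RPKM in zfCTT, 8.28 and 8.22 in dCTT, 6.32 and 5.02 in mSTING, and 10.9 and 8.48 RPKM in no-transgene libraries. Both zfCTT libraries were the lowest of all, and both mSTING libraries came next. The log2 fold change was -1.26 ± 0.20, with an adjusted p of 0.0459 by limma. The call was lost in 13 of 18 other settings, with adjusted p from 0.0512 to 0.323, while the fold change stayed between -1.42 and -1.09 as single libraries were left out. Sod1, the cytosolic superoxide dismutase, read 637 and 635 RPKM in zfCTT, 861 and 845 in dCTT, 897 and 853 in mSTING, and 1101 and 811 RPKM in no-transgene libraries (-0.57 ± 0.20, adjusted p = 0.289, limma), and gave -0.35 without no-transgene replicate 1. Glrx3 gave -0.70 ± 0.26 (adjusted p = 0.313, limma), and -0.40 without that library and -0.45 without zfCTT replicate 1. Txnrd3 gave -0.36 ± 0.18 (adjusted p = 0.460, limma), and -0.16 without zfCTT replicate 1.

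Fth1 (chr19:9980598-9985098, plus strand) encodes the ferritin heavy chain, which oxidises iron for storage. It read 9285 and 18630 RPKM in zfCTT, 11925 and 20187 in dCTT, 13820 and 23573 in mSTING, and 15401 and 20439 RPKM in no-transgene libraries. It had the highest RPKM of all protein-coding genes in each of the 8 libraries and made up 1.27% to 2.92% of the summed RPKM. Replicate 2 was higher in all 4 groups, by 1.33-fold to 2.01-fold, and all groups overlapped. Among libraries of the same replicate number the zfCTT library was the lowest each time. The log2 fold change of zfCTT over no transgene was -0.43 ± 0.45 (interval -1.5 to 0.64, adjusted p = 0.729, limma), 0.07 without zfCTT replicate 1 and -0.23 without no-transgene replicate 2.

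Ftl1 (chr7:45457944-45459884, minus strand) encodes the light chain, which favours the growth of the iron core. It read 2741 and 4988 RPKM in zfCTT, 6432 and 6639 in dCTT, 4702 and 7197 in mSTING, and 6496 and 8338 RPKM in no-transgene libraries. Both zfCTT libraries lay below all dCTT and no-transgene libraries, while the higher of them overlapped the mSTING range. Its log2 fold change was -0.99 ± 0.34 in zfCTT over no transgene, with an interval of -1.81 to -0.17, an unadjusted p of 0.0246 and an adjusted p of 0.289 by limma. It was -0.82 ± 0.34 over dCTT (adjusted p = 0.393) and -0.65 ± 0.34 over mSTING (adjusted p = 0.491), and -0.34 ± 0.34 in mSTING over no transgene. Leaving out single libraries moved the zfCTT over no-transgene value between -1.42 and -0.56. Without zfCTT replicate 1 it was -0.56, with -0.39 over dCTT and -0.22 over mSTING. The mSTING over no-transgene value ran from -0.65 to -0.03, the end nearest 0 without mSTING replicate 1. The 4 libraries with a tailed STING against the 4 without gave -0.58 ± 0.24 (-0.36 without zfCTT replicate 1), and the exact two-sided permutation test of 4 against 4 libraries gave p = 0.114, where the smallest possible is 0.0286. An exact test of 2 against 2 libraries cannot go below 0.333.

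The summed macrophage markers were also lower in both zfCTT libraries (628 and 808 RPKM) than in both no-transgene libraries (1146 and 966 RPKM). Without Lyz2, the lysozyme gene, left out after the values were seen, the sums overlapped, at 527 and 662 RPKM in zfCTT, against 660 and 785 RPKM in no-transgene libraries. Of the 8 tested markers 4 had both zfCTT libraries below both no-transgene libraries, beside 20.8% of all tested genes. In 1 (Fcgr1) both were above, beside 18.8%, and 3 overlapped. Their part in the Ftl1 difference was not tested. In such bulk samples fewer cells of a kind and less RNA per cell cannot be told apart. Reads of Ftl1 may also be shared with 7 near-identical genes, at least 95% identical over 300 or more bases. The closest annotated as coding, Ftl1-ps1 (99.6% identical over 910 bases), read 1582 and 2759 RPKM in zfCTT, 3946 and 3553 in dCTT, 2408 and 3907 in mSTING, and 4985 and 4598 RPKM in no-transgene libraries. Of these 7 genes 6 were lower in both zfCTT libraries than in both no-transgene libraries, which may be the same reads and is not separate evidence. One of them, Gm10252, lies across 26.5% of the Ftl1 exon bases on the opposite strand. Its match of 356 bases at 100% identity is that stretch of the Ftl1 locus (355 shared exon bases), so it is not a separate copy. Whether strand was used in counting is not given in the sources used here. Gm22133, annotated as a miRNA, shares 109 exon bases with Ftl1 on the same strand. Its recovered reads came to between 12.8% and 37.5% of those counted for Ftl1, and any sharing was not tested.

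**Figure D3:**
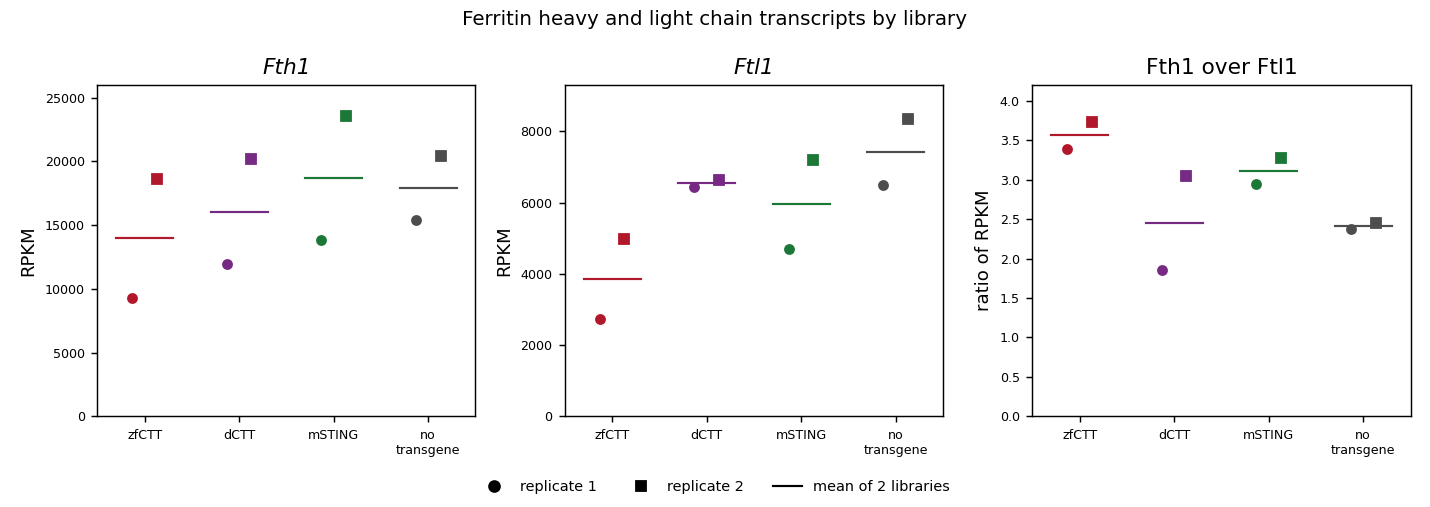
Fth1 and Ftl1 in RPKM, and the ratio of the 2 in each of the 8 libraries (circle for replicate 1, square for replicate 2, line for the mean), grouped as zfCTT, dCTT, mSTING and no transgene. Both zfCTT libraries are low for Ftl1 (2741 and 4988 RPKM), and their Fth1 to Ftl1 ratios (3.39 and 3.73) are the highest of the 8. The ratio uses the Ftl1 row alone, without its near-identical genes, and with those summed in the zfCTT ratios are not the highest.

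Iron handling beyond ferritin was followed in a list of 30 genes, of which 19 were tested and none passed in any comparison (zfCTT over no transgene, 3 of 19 with an unadjusted p under 0.05 beside 13.4% of all genes, median -0.05 beside -0.04). Trf, transferrin, the carrier of iron in plasma, read 3.02 and 4.13 RPKM in zfCTT, 8.78 and 7.54 in dCTT, 2.37 and 4.4 in mSTING, and 12.2 and 7.46 RPKM in no-transgene libraries. All 4 libraries with a tailed STING were below all 4 without for Trf, and zfCTT over no transgene gave -1.22 ± 0.31 with an adjusted p of 0.153 by limma. Gm20425, a gene on the same strand that read 13.1 to 26.1 RPKM, shares 63.5% of the Trf exon bases. The Trf count may therefore depend on how shared reads were assigned, which was not tested. Among metal importers, Slc39a14 gave -0.72 ± 0.22 (adjusted p = 0.232, limma), and -0.46 without no-transgene replicate 1. Slc11a1, the phagosomal transporter, gave -0.67 ± 0.29 (adjusted p = 0.392, limma), and -0.25 without zfCTT replicate 1. Slc11a2, the endosomal transporter DMT1, gave 0.73 ± 0.24 (adjusted p = 0.257, limma), with 8.25 and 5.13 RPKM in zfCTT, against 3.85 and 3.26 RPKM in no-transgene libraries, and 0.43 on the log2 scale without zfCTT replicate 1.

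The sources of superoxide and nitric oxide were a list of 12 genes, of which 7 were tested and none passed in any comparison (zfCTT over no transgene, 1 of 7 with an unadjusted p under 0.05 beside 13.4% of all genes, median 0.14 beside -0.04). Ncf1, the p47 subunit of the phagocyte oxidase, gave 0.28 ± 0.17 (adjusted p = 0.540, limma), and 0.17 without no-transgene replicate 1. Rac1, the GTPase that completes the complex, gave -0.40 ± 0.23 (adjusted p = 0.519, limma), and -0.22 without zfCTT replicate 1.

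**Figure D4:**
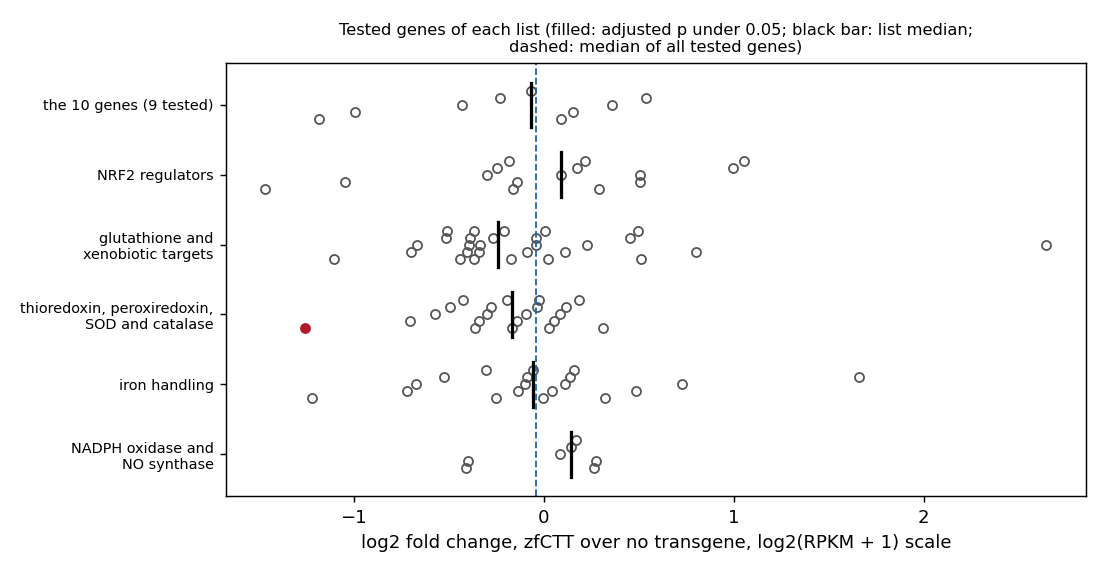
Log2 fold change of zfCTT over no-transgene libraries for the tested genes of the 10-gene set and of 5 related lists, 1 point per gene on the log2(RPKM + 1) scale, with a bar at each list's median and a dashed line at that of all tested genes. Medians lie between -0.24 and 0.14, and the filled point is Sesn1, which passed the test. The points include Gstt1, which passed the filter on low values only through zfCTT.

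Several of these genes differed by replicate number in the same direction in every group. Replicate 2 was higher than replicate 1 in all 4 groups for 5 of the 9 tested genes (Hmox1, Srxn1, Sod2, Fth1 and Ftl1) and lower in all 4 for Prdx1. Of all tested genes, 17.3% and 14.4% did so. The labels do not say what the number stands for, and no batch is named. Within number 1 the Ftl1 difference of zfCTT over no transgene was -1.25 and within number 2 -0.74 on the log2 scale, and for Nfe2l2 it was 0.63 and 0.44.

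Among 5491 named genes with a mean of at least 5 RPKM, the pattern over the 8 libraries that was most like that of Nfe2l2 was Impa1 (Pearson r = 0.993), then Tagap1 (0.990) and Ttc1 (0.982). For Hmox1 it was Anpep (0.972), Fabp3 (0.957) and Cbr1 (0.952), and for Gclm Polr3k (0.988), Ccnb1 (0.983) and Gemin6 (0.982). For Txnrd1 it was Srp14 (0.941), Rnf7 (0.925) and Mir3082 (0.922), and for Srxn1 Aplp2 (0.976), Sdhd (0.976) and Snapin (0.971). For Prdx1 it was Atp5mpl (0.980), Skp1a (0.973) and Thumpd1 (0.973), and for Sod2 Lilrb4a (0.952), Plin2 (0.933) and Insig1 (0.919). For Fth1 it was Rrp8 (0.994), Rgs2 (0.982) and Med11 (0.977), and for Ftl1 Sh3bgrl3 (0.989), Tmem141 (0.985) and Pqlc1 (0.982). These are the highest of 5491 values per gene over libraries that share group, replicate number and depth, and they are given as a description. None of the 27 is another of the 10 genes.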

How the data were processed

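Expression was measured by single-end sequencing of polyadenylated RNA in 8 libraries of Sting-/- macrophages. The authors deposited 1 table of RPKM values per gene. Reads were handled with cutadapt 1.16 and HISAT2 2.1.0 on GRCm38, per the submitters' processing notes. For the counter, the annotation release and the use of strand the sources used here give nothing. Symbols were found for 53620 of 53715 identifiers in the GENCODE annotation. Multiplying by exon length showed steps of whole reads for 93.7% to 95.6% of values per library (within 0.05 of a whole number), which gave the depth. Fewer reads give less certain values, and 72.3% to 78.1% of genes with at least 100 reads still differed between the replicates of a group by more than counting error.

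The test was limma 3.58.1 (R 4.3.3) of log2-transformed RPKM after adding 1, a scale that understates the change of low genes. Genes had to reach 1 RPKM in 2 or more libraries (13475 genes). The fit had a mean per group, an intensity trend and no replicate term, and p-values were adjusted by Benjamini-Hochberg within each of 7 comparisons. The script was tested on simulated data. Fold changes are given ± SE. Near-identical genes were found with blastn 2.17.0+. The 10 genes and the lists beside them were chosen with earlier results of these data known. All 10 genes are named. Each other list names up to 4 genes with the smallest adjusted p in zfCTT against no transgene and any that passed (some of these are not reported here), and each of the 9 tested genes names the 3 with the highest Pearson r. In 18 alternatives the pseudocount, filter, scaling, trend, unit, gene set, replicate term and libraries were changed.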

Additional observations from a re-analysis of the deposited data

How the results depend on the processing

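None of the 9 tested genes passed in any of the 7 comparisons under the 18 alternatives, and the smallest adjusted p of limma per setting ran from 0.0971 (replicate block) to 0.817 (without zfCTT replicate 1). Of the single-gene fold changes recomputed, 740 kept direction and side of the threshold, 13 lost the call (all Sesn1) and 13 reversed. With voom Hmox1 in mSTING over no transgene was -0.0038 (0.03 as reported). Without 1 library each, values in zfCTT over no transgene spanned -0.28 to 0.59 for Hmox1, -0.73 to 0.27 for Gclm, -2.54 to 0.18 for Prdx1 and -0.93 to 0.0704 for Fth1. In mSTING over no transgene they spanned -0.53 to 0.0453 for Nfe2l2, -0.41 to 0.46 for Hmox1 and -2.20 to 0.53 for Prdx1, and in dCTT over no transgene -0.93 to 0.0631 for Gclm and -2.02 to 0.71 for Prdx1. The cause was not tested.

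Counts over all genes moved more. In zfCTT against no transgene (146) they were 34 with no filter, 64 at a mean RPKM of at least 5, 48 with voom and 354 among protein-coding genes. In zfCTT against dCTT (146) they were 28, 61 and 348 for no filter, the mean filter and protein-coding genes, and in tail against no tail (123) 40, 66 and 320. In zfCTT against mSTING (16) they were 29, 2 and 63, with 8 by voom and 0 at a pseudocount of 0.1. In mSTING against no transgene (0) they were 12 with no filter, 6 among protein-coding genes, 11 at a pseudocount of 0.1 and 1 at 0.5. In dCTT against mSTING (0) they were 14, 6 and, at 0.1, 3. Leaving out 1 library gave 2 to 144, 1 to 148, 2 to 142, 0 to 5, 0 to 16 and 0 to 10 in the same order of comparisons, with the lone library of a group assumed to vary like the others.

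With the replicate number as a block the counts were 432 in zfCTT against no transgene, 409 in zfCTT against dCTT, 322 in tail against no tail and 44 in zfCTT against mSTING. The replicate differences of 2 groups correlated across genes between 0.03 and 0.76, and only 2 numbers exist, so the number was not taken to pair the libraries. Depth limits Nqo1, with 5 to 48 reads.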

Other observations

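The ratio of Fth1 to Ftl1, chosen after the values were seen, was 3.39 and 3.73 in zfCTT, 1.85 and 3.04 in dCTT, 2.94 and 3.28 in mSTING, and 2.37 and 2.45 in no-transgene libraries. The 4 libraries with a tailed STING exceeded the 4 without by 0.47 on the log2 scale, and the 2 sets overlapped through dCTT replicate 2. The exact two-sided permutation test of 4 against 4 libraries gave p = 0.0571, where the smallest possible is 0.0286. Since the ratio was picked from these same values, that p-value is no support for a difference. The replicate number moved the ratio in the same direction in all 4 groups, with replicate 2 higher. The ratio uses the Ftl1 row alone, and with its 7 near-identical genes summed in, the zfCTT ratios were not the highest. Fth1 lay below that sum in both zfCTT libraries (9285 against 11079 RPKM and 18630 against 18853 RPKM). It lay above the sum in mSTING replicate 1 (13820 against 13429 RPKM). The permutation test was not repeated with the sum, and whether these genes share reads with Ftl1 was not tested.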
